A study of Mus musculus with 16 samples.

Results

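The genes described here are 52 mouse genes for chromatin regulators whose human counterparts are known from neurodevelopmental disorders. They were taken from a fixed list of names that leaves out the CHD family. No expression value enters the rule, but the list was made with earlier results of these data known. All 52 had transcripts in the files, 469 transcripts in all, and all 52 passed the filter on low counts that left 16971 of 49166 genes for testing. Passing that filter says only that a gene was counted in enough libraries.

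The proteins fall into groups by what they do to chromatin. Writers add methyl or acetyl groups to histone tails, erasers remove them, remodellers use ATP to move or exchange nucleosomes, DNA methyltransferases and TET enzymes add or oxidise methyl groups on cytosine, and cohesin folds chromosomes into loops and holds sister chromatids together. Variants in such a gene can alter brain development. Kabuki syndrome (KMT2D, KDM6A), Sotos syndrome (NSD1), Weaver syndrome (EZH2), Coffin-Siris syndrome (ARID1B and other BAF subunits) and Cornelia de Lange syndrome (NIPBL, SMC1A, SMC3) are known examples. CHD1, the gene targeted in the study, encodes a remodeller found at transcribed genes and is altered in Pilarowski-Bjornsson syndrome.

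RNA was measured in cultures of neural progenitors from mouse cortex at E18.5, in 4 groups of 4 libraries. Chd1 knockout (KO) cultures had received a lentivirus that expresses Cas9 constitutively together with a guide RNA against Chd1. Wild-type (WT) cultures had received a lentivirus with Cas9 alone, so every group carries Cas9, and all cells went through 48 h of puromycin selection. The groups were KO cultures given 10 nM dihydrotestosterone (DHT, an androgen) after a 30 min start with 10 µM enzalutamide (ENZ, an antagonist of the androgen receptor), KO cultures given 10 nM DHT without ENZ, KO cultures given the vehicle DMSO, and WT cultures given DMSO. They are called KO DHT+ENZ, KO DHT, KO DMSO and WT DMSO, and were harvested 24 h after DHT. No WT culture received DHT and none received ENZ without DHT, so the antagonism of DHT and other effects of ENZ cannot be told apart. The labels name no clone, so the KO cells are read here as a selected population. They speak of 4 biological replicates from embryos of 2 litters and give neither the litter nor the sex of a replicate. P-values therefore measure the spread between these cultures.

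Depth, with M for 1000000, was 20.2 M estimated counts in WT DMSO replicate 1 and 31.8 M to 36.9 M in the other 15 libraries. WT DMSO replicate 1 also stood apart in the members' values, as shown later, so the values of named genes in KO DMSO against WT DMSO that moved most without it are given both ways. The cultures carried the markers of their labelled cell type, and also markers of other neural types. The summed level of 12 progenitor markers was 6940 to 9635 counts per 1000000 counts (CPM) over the 16 libraries, with Hes5 under 1 CPM in every group. Oligodendrocyte precursor markers summed to 1664 to 2598 CPM, with Sox10 and Mbp under 1 CPM in every group. Neuron markers summed to 834 to 1373 CPM, with Neurod1, Neurod2, Neurod6 and Stmn2 under 1 CPM. Astrocyte markers summed to 303 to 489 CPM, with Aqp4 under 1 CPM. Markers of microglia summed to 3.34 to 7.60 CPM, of endothelium to 5.24 to 10.7 CPM, and of pericytes, meninges and fibroblasts to 3.69 to 13.04 CPM. Chd1 itself was at 68.2 ± 5.73 CPM in KO DHT+ENZ, 72.0 ± 3.87 in KO DHT, 67.3 ± 2.68 in KO DMSO and 66.7 ± 5.73 in WT DMSO (SD, n = 4 each). Cas9 edits can disable a protein while its RNA persists, so this level checks nothing about the genotype.

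Levels were compared between genes in TPM, which is scaled by transcript length. The members had a median of 21.4 TPM, beside 10.2 TPM for all genes tested, and 43 of the 52 were above 10 TPM. The highest was Smarce1, a DNA-binding subunit of the BAF remodelling complexes, at 100.3 ± 9.66 TPM in KO DHT+ENZ, 108 ± 5.84 in KO DHT, 117 ± 13.2 in KO DMSO and 117 ± 31.5 in WT DMSO (SD, n = 4 each). Smarcb1, the BAF core subunit, was next with a mean of 109.5 TPM over all 16 libraries. It was followed by Ezh2, the methyltransferase of Polycomb repressive complex 2 (PRC2), at 104 TPM, Smc1a, a cohesin subunit, at 96.8 TPM and Smarca2, a BAF ATPase, at 95.0 TPM. Neighbours among these 5 differed in mean by less than the SD of 1 or both genes in every group, so their order is not resolved. The same 5 genes stayed highest when any 1 replicate number was left out. With protein-coding transcripts alone 4 of the 5 stayed, and Smarca4 took the place of Smarce1.

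The low end was held by large enzymes. Crebbp, an acetyltransferase, averaged 6.67 TPM, Kmt2a, an H3K4 methyltransferase, 5.81 TPM, Kat6b, an acetyltransferase, 5.77 TPM, and Setd1b, another H3K4 methyltransferase, 3.83 TPM. Asxl3 was far below them at 0.11 TPM. The SDs of Crebbp, Kmt2a and Kat6b, such as 1.78, 2.16 and 1.80 TPM in KO DHT+ENZ, were larger than the gaps between their means.

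**Figure D1:**
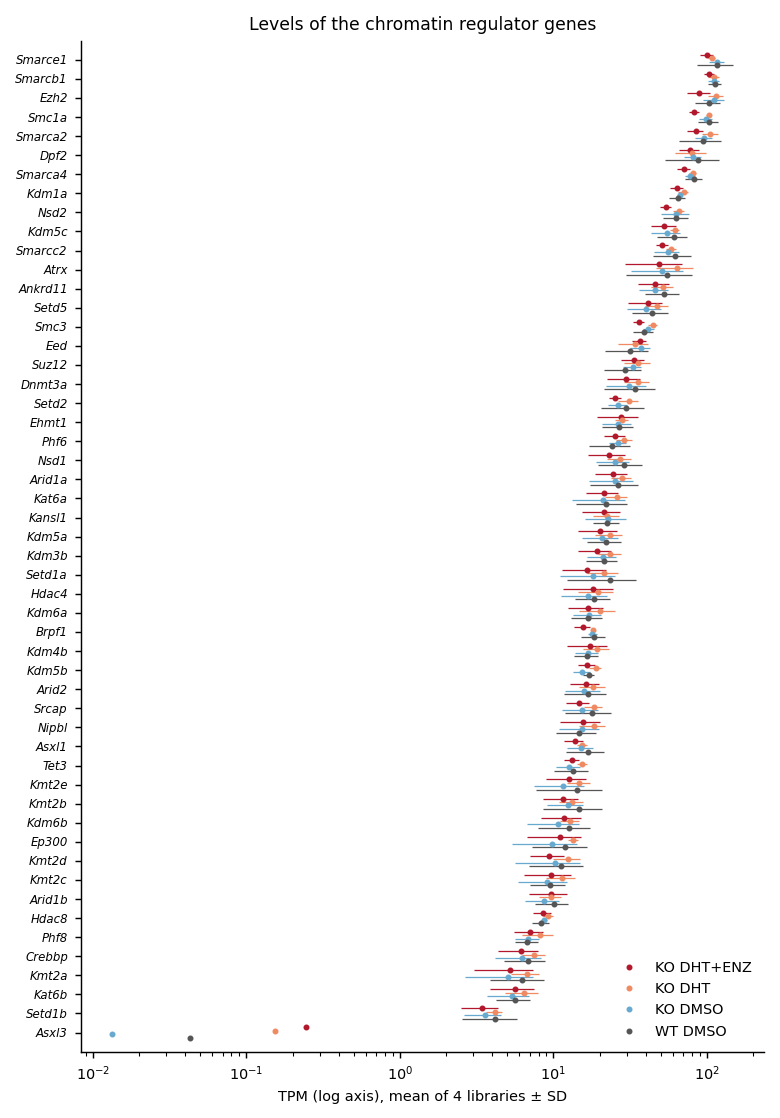
Levels of the 52 chromatin regulator genes in TPM on a log axis, ordered by the mean over 16 libraries. Points are means of 4 libraries per group and lines are SDs (none is drawn for Asxl3, whose level was near 0 in many libraries). The groups overlap for most genes, and the levels run from 0.11 TPM (Asxl3) to 110.4 TPM (Smarce1).

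The members have long transcripts. Their median length, weighted by transcript abundance, was 5342 bases, against 2403 bases for all genes tested, and 45 of the 52 were longer than the median tested gene. Length runs from 1077 bases for Eed to 16043 bases for Kmt2a. In 20 members 1 transcript held over 90% of the gene's counts, and in 6 members no transcript reached 50%. Short transcripts move the per-length levels of some large genes. Kmt2d-204, of 899 bases, held 3.67% of the Kmt2d counts and 54.5% of its TPM, while the full Kmt2d-201, of 19823 bases, held 90.9% of the counts and 40.2% of the TPM. Mean lengths are weighted by TPM too, so that of Kmt2d was 8895 bases, far below the transcript with most of its counts. The length checks below use these mean lengths, which are too short for such genes by that measure. Kmt2c-208, of 6443 bases, held 43.6% of the Kmt2c counts and Kmt2c-201, of 14967 bases, held 35.7%. For Smarca2 the largest share of counts, 22.9%, fell on Smarca2-246, a transcript of 1841 bases. Such shares are estimates of kallisto's model, which divides reads that fit several transcripts.

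The replicate number went with more of the variance of the members than the group did. The median share of a member's variance in log2 CPM that went with the number was 51.9%, against 14.1% with the group, and 37 of the 52 had the larger share with the number. Over all genes tested the medians were 43.3% and 15.8%. In 35 members both replicates 1 and 4 averaged above both replicates 2 and 3, and in 9 members the reverse held. Among all genes tested these 2 patterns were about equally common, at 37.6% and 36.4%. The 35 members had a median length of 6399 bases and the 9 of 3942 bases.

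Kmt2a and Smarcb1 show the 2 patterns (both were chosen after their values were seen). Kmt2a, with the longest mean length, had 77.6, 40.8, 48.9 and 83.3 CPM in KO DHT+ENZ replicates 1 to 4, 77.7, 70.97, 59.7 and 88.6 CPM in KO DHT, 72.1, 42.6, 35.4 and 84.2 CPM in KO DMSO, and 91.9, 65.9, 43.2 and 93.5 CPM in WT DMSO. Replicates 1 and 4 were the high ones in all 4 groups. Smarcb1, with a mean length of 1694 bases, had 100.2, 131, 113 and 101 CPM in KO DHT+ENZ, 110.4, 109, 129 and 93.6 CPM in KO DHT, 104, 117, 132 and 103 CPM in KO DMSO, and 116, 112, 144 and 99.1 CPM in WT DMSO. Its highest library was replicate 2 in KO DHT+ENZ and replicate 3 in the other groups.

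**Figure D2:**
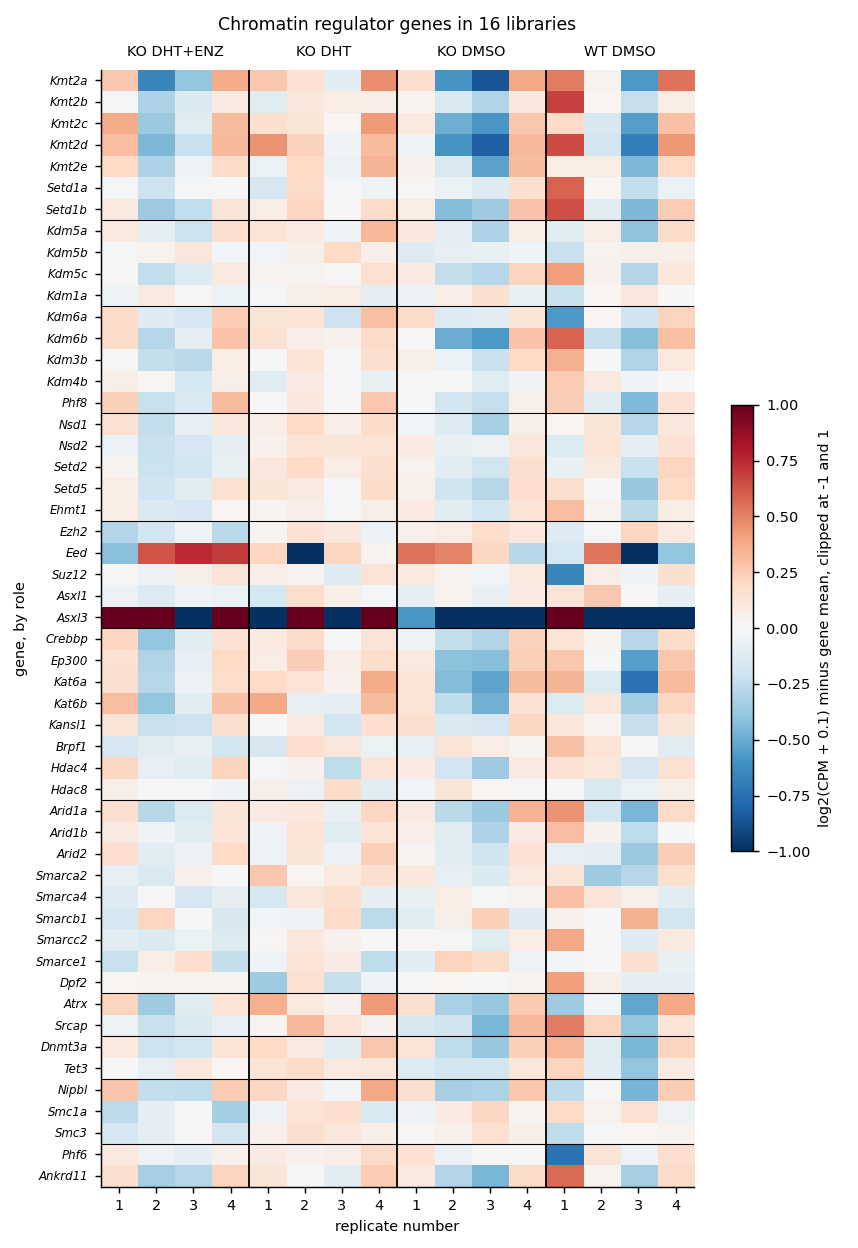
Level of each member in each library as log2(CPM + 0.1) minus the gene's mean over 16 libraries, clipped at -1 and 1. Genes are ordered by role with lines between roles, in the order of H3K4 methyltransferases, H3K4 demethylases, H3K27 and H3K9 demethylases, H3K36 and H3K9 methyltransferases, PRC2 and Asxl proteins, acetylation, BAF and PBAF, Atrx and Srcap, DNA methylation, cohesin, and others. Most genes are red in the columns of replicate 4 and blue in replicates 2 and 3 of KO DHT+ENZ and KO DMSO and in replicate 3 of WT DMSO, while the KO DHT columns are more alike.

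The deviations of the members' median from the gene means, on the log2 scale, were 0.08, -0.19, -0.11 and 0.11 in KO DHT+ENZ replicates 1 to 4, 0.05, 0.12, 0.01 and 0.16 in KO DHT, 0.04, -0.13, -0.21 and 0.11 in KO DMSO, and 0.17, 0.02, -0.28 and 0.13 in WT DMSO. KO DHT replicates 2 and 3 were above 0 and replicates 2 and 3 of KO DHT+ENZ and KO DMSO were below it. After each library's own trend with transcript length over all genes was removed, the values ran from -0.10 to 0.06 in 15 libraries. WT DMSO replicate 1 stayed at 0.19, and its members were also the most spread, with an interquartile range of 0.45 against 0.10 to 0.27 in the others.

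**Figure D3:**
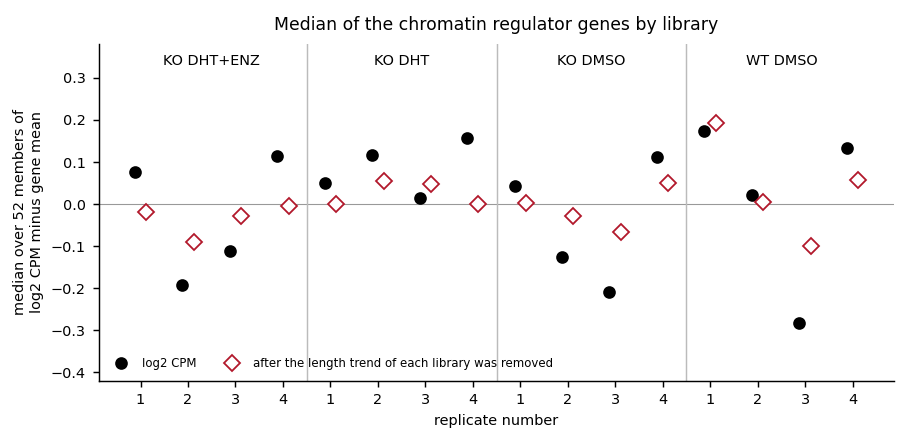
Median over the 52 members of log2 CPM minus each gene's mean, for every library (black), and the same after the length trend of that library over all genes was removed (open diamonds). The black points span -0.28 to 0.17. The diamonds lie within 0.10 of 0 except in WT DMSO replicate 1, at 0.19.

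Differences between groups were tested with edgeR's quasi-likelihood test in 1 model of the 4 groups, with Benjamini-Hochberg adjustment over all 16971 genes, and a gene was called at an adjusted p under 0.05. Fold changes are log2 values with their standard errors (SE). Libraries with the same number in different groups deviated together, so the fit with the number as a block is given wherever it changes a call. An SE from the fit without the block includes the spread between replicate numbers. Each comparison shares a group of libraries with at least 1 other, so the 4 are not independent of each other.

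ENZ added to DHT was compared with DHT alone in KO cultures. The members of this set with the smallest p-values in KO DHT+ENZ were a histone methyltransferase of PRC2 (Ezh2), writers of H3K36 methylation (Nsd2, Setd2) and cohesin subunits (Smc1a, Smc3), all at lower levels than in KO DHT by 0.20 to 0.25 on the log2 scale. None of the 52 was called without the block, where 45 of 16971 genes, or 0.265%, were called. At an unadjusted p under 0.05 there were 4 members lower and 0 higher in edgeR, beside 578 lower and 604 higher of all 16971 genes. DESeq2 without the block also called 0 members. With the block Ezh2 was called lower, which is 1 of 52 members or 1.92%, the same as the 1.92% of all genes called lower there. No member was called higher, beside 1.57% of all genes. Medians of the whole set were -0.11 for the members and -0.00 for all genes tested, and 45 of 52 members were below 0. In 17 members the value was lower in every same-numbered pair (32.7%, beside 14.2% of all genes tested), and in 0 members higher in every pair, beside 14% of all genes. The libraries of both groups did not overlap for 5 members, all lower in KO DHT+ENZ (Nsd2, Setd2, Smarcc2, Srcap and Smc3), which is 9.62% beside 2.97% of all genes, and for 0 members higher, beside 3.08%. Smarcc2 and Srcap are described for this reason, chosen after their values were seen.

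Against KO DMSO, the KO DHT+ENZ cultures had Ezh2 at a log2 difference of -0.29 and the cohesin subunits Smc1a and Smc3 at -0.24 and -0.18. No member was called without the block, where 43 genes, or 0.253%, were called, and DESeq2 without the block called 0. At an unadjusted p under 0.05 there were 3 lower and 1 (Asxl3) higher, beside 573 lower and 405 higher of all 16971 genes. With the block Ezh2 was called lower and Asxl3 higher, 1 member each, beside 2.09% of all genes called lower and 0.854% called higher. Asxl3 passed the filter on low counts only through libraries outside KO DMSO, so its call is no support. The median of the members was 0.01 and 28 of 52 were above 0. The groups did not overlap for Ezh2 and Smc3, which were lower in KO DHT+ENZ (3.85%, beside 3.18% of all genes), and for Kdm5b, which was higher (1.92%, beside 2.92%). In 10 members KO DHT+ENZ was lower in every same-numbered pair (19.2%, beside 15.6% of all genes) and in 7 higher (13.5%, beside 16%).

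Genes of cell division were lower in the KO DHT+ENZ cultures of both comparisons. Of 20 mitosis markers, 10 were called lower in KO DHT+ENZ than in KO DHT and 11 lower than in KO DMSO in edgeR, and 19 in each with the block. Of all genes, 0.265% and 0.253% were called in either direction without the block. With it 1.92% and 2.09% were called lower. The marker lists were made with earlier results of these data known, so their counts are description only. Their summed level was 1641 to 1957 CPM in KO DHT+ENZ, 2441 to 2966 CPM in KO DHT, 2406 to 2824 CPM in KO DMSO and 2280 to 2686 CPM in WT DMSO, with no overlap between KO DHT+ENZ and the other groups. Of 16 DNA replication markers, 0 were called without the block, and 8 against KO DHT and 13 against KO DMSO were called lower with it. The same shares of all genes stand beside these counts. Their sums overlapped, at 1459 to 2228 CPM in KO DHT+ENZ, 1809 to 2658 CPM in KO DHT and 2061 to 2887 CPM in KO DMSO. The part of these markers in the values of Ezh2, Smc1a, Smc3, Nsd2 and Setd2 was not tested. In bulk RNA fewer cells of a type and less RNA per cell cannot be told apart.

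DHT was compared with DMSO in KO cultures. No member was called with or without the block, and neither was any of the 16971 genes (0%), and DESeq2 called 0 with and without the block. With the block DESeq2 gave an adjusted p to only 2165 genes here, and a gene without one could not be called. The differences leaned to higher values in KO DHT, with 40 of 52 above 0 and a median of 0.10, beside -0.00 for all genes tested. With the block 16 members were higher and 0 lower at an unadjusted p under 0.05 (30.8%, beside 3.51% of all genes higher). Without it 1 member (Asxl3) was higher and 0 lower, beside 101 higher and 92 lower of all 16971 genes. With the block and each library's length trend removed 4 were higher (7.69%, beside 2.06% of all genes). In 15 members KO DHT was higher in every same-numbered pair (28.8%, beside 11.3% of all genes) and in 0 lower, beside 13.2%. The pairs were unequal: the members' median difference was 0.00, 0.25, 0.24 and -0.00 in pairs 1 to 4. The groups did not overlap for Kdm5b and Nsd1, which were higher in KO DHT (3.85%, beside 0.754% of all genes), and for 0 members lower, beside 0.825%.

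KO DMSO was compared with WT DMSO to see the state of the set under the Chd1 guide without added androgen. No member and none of the 16971 genes (0%) was called, with or without the block, and DESeq2 called 0 members with and without it, beside 0.0541% of its genes with it. At an unadjusted p under 0.05 there were 0 members without the block, beside 146 higher and 362 lower of all 16971 genes. With it there were 4, all lower (7.69%, beside 4.56% of all genes lower). The median of the members was -0.07, with 38 of 52 below 0. The median moved with the library left out. In the fit without the block it was -0.01 without WT DMSO replicate 1 and -0.15 without WT DMSO replicate 3. The other fits, among them the block without WT DMSO replicate 1, gave -0.09 to -0.02. By same-numbered pair the median was -0.18, -0.16, 0.04 and -0.00 in pairs 1 to 4. In 8 members KO DMSO was lower in every same-numbered pair (15.4%, beside 6.57% of all genes), and in 1 member, Smc3, higher (1.92%, beside 6.24%). For no member were the groups apart, beside 0.613% of all genes higher and 0.465% lower.

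The H3K4 methyltransferases Kmt2a, Kmt2b, Kmt2c, Kmt2d, Setd1a and Setd1b mark promoters and enhancers, and Kmt2e is a relative. None of the 7 was called in any comparison. Their median log2 difference was -0.13 in KO DHT+ENZ against KO DHT, 0.07 in KO DHT+ENZ against KO DMSO, 0.20 in KO DHT against KO DMSO and -0.21 in KO DMSO against WT DMSO. Kmt2d, a writer of enhancer H3K4 methylation, had the largest difference of the 7 between KO DHT and KO DMSO. It had 89.96, 77.05, 64.03 and 81.8 CPM in KO DHT, against 63.9, 43.7, 37.2 and 82.2 CPM in KO DMSO. The KO DMSO values of replicates 2 and 3 were low and that of replicate 4 was above the KO DHT value of its number, so the groups overlap. KO DHT exceeded KO DMSO by 0.46 (SE 0.28; adjusted p = 1, edgeR), and with the block 0.53 (SE 0.14; adjusted p = 0.606, edgeR).

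Kmt2c, which also acts at enhancers, had 66.9, 39.9, 47.4 and 64.2 CPM in KO DHT+ENZ, against 55.1, 36.6, 34.5 and 62.2 CPM in KO DMSO. It was higher in 4 of 4 pairs, by 0.21 (SE 0.22), while the groups overlap widely. Kmt2b, which acts at promoters, had 52.1, 45.8, 41.2 and 54.8 CPM in KO DMSO, against 81.5, 51.6, 43.4 and 53.5 CPM in WT DMSO. The difference of -0.24 (SE 0.16) came with 1 high value, that of WT DMSO replicate 1, and was -0.03 without that library.

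The H3K4 demethylases Kdm5a, Kdm5b, Kdm5c and Kdm1a remove this mark, and none was called. Kdm5b had 80.00, 82.96, 87.4 and 79.3 CPM in KO DHT+ENZ, 79.3, 84.2, 92.9 and 84.3 CPM in KO DHT, and 73.9, 76.5, 76.7 and 79.1 CPM in KO DMSO. Both DHT groups were above every KO DMSO value by small margins. The log2 fold change of KO DHT over KO DMSO was 0.15 (SE 0.08; adjusted p = 1, edgeR) and that of KO DHT+ENZ over KO DMSO 0.11 (SE 0.08; adjusted p = 1, edgeR). With the block and the length trend removed, KO DHT over KO DMSO was 0.02 (adjusted p = 0.998, edgeR). WT DMSO values were 69.4, 83.1, 84.2 and 84.4 CPM and spanned the KO DMSO range.

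The H3K27 and H3K9 demethylases Kdm6a, Kdm6b, Kdm3b, Kdm4b and Phf8 clear repressive marks. None was called. Kdm6a, which lies on the X chromosome, had 45.6, 36.3, 37.03 and 43.4 CPM in KO DMSO, against 26.8, 40.5, 34.9 and 46.7 CPM in WT DMSO. The difference of 0.12 (SE 0.16) turned to -0.00 without WT DMSO replicate 1, the lowest of the 16 libraries. Kdm4b was lower in KO DMSO than in WT DMSO in 4 of 4 pairs, by -0.11 (SE 0.09), or -0.05 without WT DMSO replicate 1, with 36.3, 36.2, 33.2 and 35.2 CPM in KO DMSO, against 42.9, 38.3, 35.2 and 36.03 CPM in WT DMSO. Between KO DHT+ENZ and KO DHT it differed by 0.02 (SE 0.09). Phf8 was at 25.4, 18.4, 19.3 and 26.8 CPM in KO DHT+ENZ, against 21.4, 18.96, 18.3 and 22.3 CPM in KO DMSO (0.15, SE 0.15).

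The H3K36 methyltransferases act along gene bodies and between genes. Nsd2, which makes H3K36 dimethylation, had 183, 164, 169.8 and 178 CPM in KO DHT+ENZ, 197, 209.9, 208 and 211 CPM in KO DHT, 202, 181, 184 and 206 CPM in KO DMSO, and 174, 211, 179.5 and 211 CPM in WT DMSO. Every KO DHT+ENZ value was below every KO DHT value. Against KO DHT its log2 fold change was -0.25 (SE 0.08; adjusted p = 0.363, edgeR), and with the block -0.25 (SE 0.07; adjusted p = 0.0656, edgeR). Against KO DMSO it was -0.15 (SE 0.08; adjusted p = 0.980, edgeR), with overlapping groups.

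Setd2, which makes H3K36 trimethylation during transcription, had 86.7, 73.5, 74.6 and 81.1 CPM in KO DHT+ENZ, 91.4, 97.97, 89.7 and 95.3 CPM in KO DHT, 87.4, 78.5, 75.1 and 95.1 CPM in KO DMSO, and 80.9, 91.1, 73.04 and 99.01 CPM in WT DMSO. The KO DHT values were all above those of KO DHT+ENZ, while KO DMSO and WT DMSO overlapped both. The log2 fold change of KO DHT+ENZ over KO DHT was -0.25 (SE 0.10; adjusted p = 0.585, edgeR), and with the block -0.25 (SE 0.08; adjusted p = 0.1002, edgeR). Nsd1, another H3K36 dimethyltransferase, had 125, 137, 125 and 135 CPM in KO DHT, against 117, 109, 94.3 and 124 CPM in KO DMSO. The lowest KO DHT value lay just above the highest KO DMSO value, and the log2 fold change was 0.23 (SE 0.11; adjusted p = 1, edgeR), or 0.11 (adjusted p = 0.909, edgeR) with the block and the length trend removed.

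PRC2 writes the repressive H3K27 methylation through Ezh2, with Eed and Suz12 as core subunits. Ezh2 had 101, 109, 121 and 103 CPM in KO DHT+ENZ, 126, 137, 134 and 119 CPM in KO DHT, 128, 131, 140.0 and 133 CPM in KO DMSO, and 113, 123, 144 and 132 CPM in WT DMSO. KO DHT+ENZ was below KO DMSO without overlap. It overlapped KO DHT through 1 library of each group. Relative to KO DMSO its log2 fold change was -0.29 (SE 0.09; adjusted p = 0.289, edgeR), and with the block -0.30 (SE 0.06; adjusted p = 0.0167, edgeR), lower in 4 of 4 pairs. Against KO DHT it was -0.25 (SE 0.09; adjusted p = 0.421, edgeR), and with the block -0.25 (SE 0.06; adjusted p = 0.0388, edgeR), also in 4 of 4 pairs. Between KO DHT and KO DMSO it differed by -0.05 (SE 0.09). The call held with the length trend removed and the block kept, at -0.27 against KO DHT (adjusted p = 0.0230, edgeR) and -0.28 against KO DMSO (adjusted p = 0.0185, edgeR). The main transcript, Ezh2-201, held 46.7% to 54.3% of the Ezh2 counts in KO DHT+ENZ, 46.1% to 53.8% in KO DHT and 46.8% to 55.9% in KO DMSO, so its share overlapped between these groups.

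Eed, with the shortest mean transcript, had 13.4, 27.8, 30.1 and 29.1 CPM in KO DHT+ENZ, 20.8, 6.23, 20.8 and 18.3 CPM in KO DHT, 26.1, 25.2, 20.7 and 14.7 CPM in KO DMSO, and 15.8, 26.05, 6.05 and 13.7 CPM in WT DMSO. KO DHT+ENZ replicate 1, KO DHT replicate 2 and WT DMSO replicate 3 were far below the other libraries of their groups, and no comparison of Eed was called. Its log2 differences were 0.60 (SE 0.39) in KO DHT+ENZ against KO DHT, -0.39 (SE 0.39) in KO DHT against KO DMSO and 0.49 (SE 0.40) in KO DMSO against WT DMSO. The share of Eed counts on Eed-201 ran from 2.9% to 82.6% over the KO DHT and KO DHT+ENZ libraries. Suz12 had 94.5, 89.9, 97.9 and 102.3 CPM in KO DHT+ENZ and 98.3, 96.3, 85.99 and 102.8 CPM in KO DHT, which overlap. Its log2 difference was 0.00 (SE 0.13) in KO DHT+ENZ against KO DHT and -0.02 (SE 0.13) against KO DMSO, and neither was called. It had 101, 95.9, 92.1 and 101 CPM in KO DMSO, against 59.5, 98.3, 91.7 and 105 CPM in WT DMSO, where replicate 1 alone was low. The difference of 0.13 (SE 0.13) turned to -0.01 without that library.

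The Asxl proteins work with the deubiquitinase Bap1 on histone H2A. Asxl3 was close to absent in most libraries. Its estimated counts were 111, 57.0, 1.15 and 93.0 in KO DHT+ENZ replicates 1 to 4, and 1.21, 97.1, 1.05 and 62.9 in KO DHT. In KO DMSO there were 4.58 in replicate 1 and under 0.01 in each of the others, and in WT DMSO 20.0, under 0.01, 2.17 and 1.07. Libraries with over 50 counts thus occurred in 3 of 4 KO DHT+ENZ and 2 of 4 KO DHT cultures, and KO DHT+ENZ replicate 3 had about 1 count. The block fit called Asxl3 higher in KO DHT+ENZ than in KO DMSO (adjusted p = 0.0432, edgeR), and the fit without the block did not (adjusted p = 0.320, edgeR). DESeq2 with the block did not call it. It passed the filter on low counts only through the 6 libraries with 20.0 counts or more, none of them in KO DMSO, so it had to differ from that group and the call is no support. No size is read from its fitted fold changes, which depend on the prior count where a group lies near 0. The difference between KO DHT+ENZ and KO DHT was not called (adjusted p = 1 without and 0.844 with the block, edgeR). Nor was that between KO DHT and KO DMSO (adjusted p = 1 without and 0.606 with the block, edgeR) or between KO DMSO and WT DMSO (adjusted p = 1 without and 0.752 with the block, edgeR).

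Acetyltransferases open chromatin and deacetylases close it. None of the 8 members of this role was called. Brpf1, a scaffold of the Kat6a and Kat6b complexes, had 45.2, 47.2, 48.2 and 44.7 CPM in KO DHT+ENZ, against 48.1, 55.6, 53.5 and 51.9 CPM in KO DMSO. It was lower in 4 of 4 pairs with ranges that overlap slightly, with a log2 fold change of -0.17 (SE 0.10; adjusted p = 1, edgeR). Hdac4, a class IIa deacetylase, had 60.1, 49.2, 47.7 and 60.8 CPM in KO DHT+ENZ, against 54.9, 45.5, 40.4 and 55.5 CPM in KO DMSO (0.15, SE 0.12). The 4 pairs were all higher in KO DHT+ENZ, although the differences between replicate numbers were larger than those between the groups. Against KO DHT it differed by 0.08 (SE 0.12). Hdac8, which deacetylates Smc3, was at 9.51 to 11.7 CPM over the KO cultures, and differed by 0.07 (SE 0.09) between KO DMSO and WT DMSO.

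The BAF and PBAF complexes slide and evict nucleosomes. None of their 9 members was called. Their median log2 difference was -0.03 in KO DHT+ENZ against KO DHT, -0.04 in KO DHT+ENZ against KO DMSO, 0.05 in KO DHT against KO DMSO and -0.06 in KO DMSO against WT DMSO. Dpf2, a histone reader of BAF, was nearly constant in KO DHT+ENZ at 98.00, 98.9, 99.2 and 98.8 CPM, and in KO DMSO at 96.1, 97.9, 96.7 and 98.8 CPM. In KO DHT it ran over 75.4, 107, 82.2 and 94.04 CPM, with 2 low libraries. The log2 differences were 0.14 (SE 0.12) for KO DHT+ENZ over KO DHT and -0.12 (SE 0.12) for KO DHT over KO DMSO. Smarce1 differed by -0.08 (SE 0.11) between KO DHT and KO DMSO. Smarcc2, a BAF scaffold subunit, was one of the 5 genes whose KO DHT+ENZ values, 133, 131, 138 and 132 CPM, were all below those of KO DHT, at 145, 155, 149 and 144 CPM.

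The remaining remodellers and DNA-modifying enzymes were not called either. Srcap, which places the histone variant H2A.Z, had 81.4, 72.1, 75.96 and 79.5 CPM in KO DHT+ENZ, 85.8, 105, 92.3 and 86.9 CPM in KO DHT, 75.3, 73.3, 61.2 and 106 CPM in KO DMSO, and 120.2, 98.01, 63.9 and 91.9 CPM in WT DMSO. KO DHT+ENZ lay wholly below KO DHT, and the 2 DMSO groups were far wider. The difference of KO DMSO from WT DMSO was -0.24 (SE 0.17), and -0.10 without WT DMSO replicate 1. Tet3, which oxidises methylcytosine, had 114, 119, 111 and 112 CPM in KO DHT, against 94.7, 91.4, 91.2 and 112 CPM in KO DMSO. Its log2 fold change of 0.23 (SE 0.11; adjusted p = 1, edgeR) was 0.03 (adjusted p = 0.998, edgeR) with the block and the length trend removed. Ankrd11, a nuclear protein that binds deacetylases and is known from KBG syndrome, was lower in KO DMSO than in WT DMSO in 4 of 4 pairs, with 203, 155, 138 and 216.5 CPM in KO DMSO, against 281, 195, 151 and 216.9 CPM in WT DMSO. Its log2 fold change was -0.24 (SE 0.19; adjusted p = 1, edgeR), and with the block -0.24 (SE 0.09; adjusted p = 0.585, edgeR). Leaving out WT DMSO replicate 1 gave -0.07, and -0.14 with the block (adjusted p = 0.552, edgeR).

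Cohesin is built from Smc1a and Smc3 and is loaded by Nipbl. Smc3 had 115, 120.2, 129.7 and 114 CPM in KO DHT+ENZ, 134, 144, 139.6 and 134 CPM in KO DHT, 130.2, 134, 143 and 134 CPM in KO DMSO, and 108, 127, 131 and 132 CPM in WT DMSO. Every KO DHT+ENZ value was below every KO DHT and KO DMSO value, although the highest of them lay just under the lowest KO DMSO value. Its log2 fold change was -0.20 against KO DHT (SE 0.08; adjusted p = 0.507, edgeR), and with the block -0.21 (SE 0.06; adjusted p = 0.0744, edgeR). Against KO DMSO it was -0.18 (SE 0.08; adjusted p = 0.778, edgeR), and with the block -0.18 (SE 0.06; adjusted p = 0.149, edgeR). Smc3 was also 0.12 (SE 0.08) above WT DMSO in KO DMSO, and 0.06 without WT DMSO replicate 1.

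Smc1a, on the X chromosome, had 219, 246, 261 and 207 CPM in KO DHT+ENZ, 253, 289, 295 and 236 CPM in KO DHT, 253, 278, 303 and 267 CPM in KO DMSO, and 300.2, 268, 289 and 254 CPM in WT DMSO. It was lower in KO DHT+ENZ in 4 of 4 pairs against both other KO groups, and the ranges overlap, with replicates 2 and 3 the high ones in each KO group. Smc1a differed by -0.20 against KO DHT (SE 0.10; adjusted p = 0.753, edgeR), and with the block -0.20 (SE 0.07; adjusted p = 0.125, edgeR). Against KO DMSO it was -0.24 (SE 0.10; adjusted p = 0.709, edgeR), and with the block -0.24 (SE 0.07; adjusted p = 0.0656, edgeR). Between KO DHT and KO DMSO it was -0.04 (SE 0.10), a value that turned positive without KO DHT replicate 4 or without KO DMSO replicate 3.

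**Figure D4:**
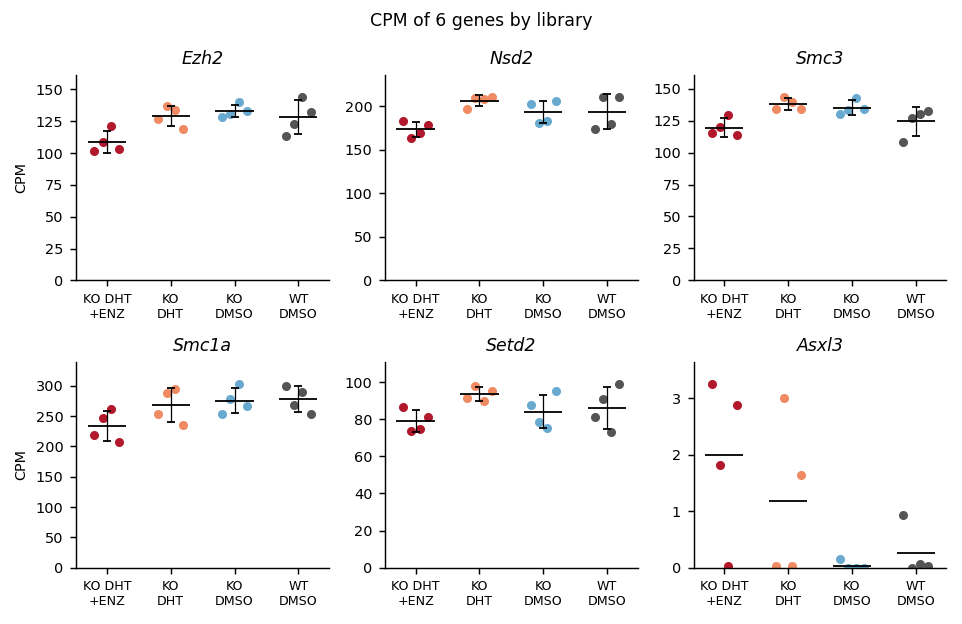
CPM of 6 members in every library, from 0, with the group's mean and SD (no SD for Asxl3). KO DHT+ENZ values of Nsd2, Setd2 and Smc3 lie below all KO DHT values, those of Ezh2 and Smc3 below all KO DMSO values, and Asxl3 reaches over 1 CPM only in 3 KO DHT+ENZ and 2 KO DHT libraries.

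How many of these 5 lower genes passed depended on WT DMSO replicate 1, which is not part of the comparison but enters the shared estimate of spread. Without it and with the block, Nsd2, Setd2, Ezh2, Smc1a and Smc3 were called lower in KO DHT+ENZ than in KO DHT, 5 members or 9.62% beside 4.06% of all 17230 genes tested there. Against KO DMSO, Ezh2, Smc1a and Smc3 were called lower (5.77%, beside 4.42%) and Asxl3 higher (1.92%, beside 2.81%). No member was called higher against KO DHT, beside 4.53%, and in the other 2 comparisons none was called in either direction, beside 0.0174% in KO DMSO against WT DMSO and 0.0058% in KO DHT against KO DMSO. DESeq2 with the block on all 16 libraries gave an adjusted p to 13022 genes against KO DHT and to 13351 against KO DMSO. It called the same 5 lower against KO DHT (beside 3.63% of those genes) and Ezh2 and Smc1a lower against KO DMSO (beside 4.02%). None was called higher in either (beside 4.29% and 2.12%). The fold changes of the 5 genes against KO DHT were -0.20 to -0.25 in each of these fits.

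Promoter windows are shown for the 4 of these 5 genes that have one in the RefSeq table, and for Suz12, a PRC2 member that was not called and was chosen after its values were seen. Each window holds 250 bases before and 50 bases after the gene's start in RefSeq's GRCm38.p6, read 5′ to 3′ on the gene's strand. Capitals mark matches to the E2F motif, searched as TTTCCCGC, TTTGGCGC, TTTCGCGC and TTTGCCGC on both strands. E2F factors are known regulators of cell cycle genes.
Ezh2, chr6:47594981-47595280, minus strand: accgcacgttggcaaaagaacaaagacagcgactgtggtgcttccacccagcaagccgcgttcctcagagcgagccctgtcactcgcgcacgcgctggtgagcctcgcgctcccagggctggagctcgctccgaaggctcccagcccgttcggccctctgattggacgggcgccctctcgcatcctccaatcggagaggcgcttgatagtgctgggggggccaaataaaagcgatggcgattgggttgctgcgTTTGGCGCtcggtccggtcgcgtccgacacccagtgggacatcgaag
Smc1a, chrX:152016178-152016477, plus strand: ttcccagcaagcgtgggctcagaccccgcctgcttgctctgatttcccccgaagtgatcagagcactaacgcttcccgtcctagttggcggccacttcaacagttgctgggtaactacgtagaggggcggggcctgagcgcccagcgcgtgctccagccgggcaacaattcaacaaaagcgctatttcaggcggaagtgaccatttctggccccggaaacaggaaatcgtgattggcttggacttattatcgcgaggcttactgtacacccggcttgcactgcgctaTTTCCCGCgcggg
Smc3, chr19:53600146-53600445, plus strand: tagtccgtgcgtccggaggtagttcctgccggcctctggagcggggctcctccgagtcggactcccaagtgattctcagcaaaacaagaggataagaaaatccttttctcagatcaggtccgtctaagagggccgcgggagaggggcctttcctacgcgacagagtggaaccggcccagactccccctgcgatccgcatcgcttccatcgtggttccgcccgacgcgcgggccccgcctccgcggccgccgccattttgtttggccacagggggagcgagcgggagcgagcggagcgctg
Setd2, chr9:110532347-110532646, plus strand: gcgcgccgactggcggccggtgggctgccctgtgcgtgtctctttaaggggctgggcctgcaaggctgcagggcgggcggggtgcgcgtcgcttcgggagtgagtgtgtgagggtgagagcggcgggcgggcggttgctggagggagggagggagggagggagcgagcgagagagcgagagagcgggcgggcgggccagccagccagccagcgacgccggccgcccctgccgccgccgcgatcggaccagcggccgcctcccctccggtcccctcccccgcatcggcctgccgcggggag
Suz12, chr11:79992856-79993155, plus strand: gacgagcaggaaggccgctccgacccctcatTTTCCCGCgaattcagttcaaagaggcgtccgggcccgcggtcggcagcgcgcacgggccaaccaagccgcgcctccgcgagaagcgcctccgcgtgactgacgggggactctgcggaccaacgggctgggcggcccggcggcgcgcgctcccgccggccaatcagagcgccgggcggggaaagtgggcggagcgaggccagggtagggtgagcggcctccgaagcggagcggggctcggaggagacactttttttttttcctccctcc

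Ezh2 carried TTTGGCGC from base 254 of its window and Smc1a TTTCCCGC from base 288. Smc3 and Setd2 held none of the 4 words, and Suz12, which was not called in any comparison, held TTTCCCGC from base 32. The motif was found in 4 of 43 windows of the members (9.30%), which belong to Ezh2, Smc1a, Suz12 and Arid1a, against 2.26% of all 32851 windows in the table. The members' windows were also richer in G and C, at a median of 68% against 52.7%, and in CpG, at a median of 30 against 7. The cell cycle homology motif (TTTGAA or TTCGAA) was found in 9.30% of the members' windows and 19.2% of all windows, and CCAAT in 32.6% and 37.4%. These matches describe the letters of the window and are not measured binding. The table held windows for 37 of the 52 members. The others are Arid2, Kdm4b, Kdm3b, Kdm5a, Nsd1, Kat6a, Asxl3, Setd1b, Nipbl, Phf6, Nsd2, Kmt2e, Kmt2b, Smarce1 and Kdm6b.

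Transcript length ran through the comparisons of the set. Across all genes tested, the rank correlation between length and the difference of KO DHT from KO DMSO was 0.31, and across the members it was 0.81. Genes are not independent replicates, and these values describe the same 8 libraries. The members' median difference was -0.01 for the 18 shortest (1077 to 4204 bases), 0.14 for the 16 of middle length and 0.23 for the 18 longest (6474 to 16043 bases). After the length trend of each library was removed, the 3 medians were -0.02, 0.05 and 0.09, the median of all 52 was 0.02 in place of 0.11 on this scale, and 4 members were higher at an unadjusted p under 0.05 with the block (against 16 before). The rank correlation with length was 0.45 among the members and 0.00 over all genes after the trend was removed. The pairs kept their inequality, with medians of 0.01, 0.11, 0.07 and -0.06 in pairs 1 to 4.

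In KO DHT+ENZ against KO DHT the median difference was -0.04, -0.13 and -0.14 for short, middle and long members, and -0.02, -0.06 and -0.05 after the trend was removed. The rank correlation with length was -0.36 among the members and -0.18 over all genes tested, and -0.08 and 0.03 after. The pair medians were 0.01, -0.30, -0.14 and -0.05 before and -0.03, -0.15, -0.07 and 0.03 after. With the trend removed and the block kept, Ezh2 and Nsd2 were called lower against KO DHT (3.85%, beside 2.02% of all genes), Nsd2 at -0.20 (adjusted p = 0.0433, edgeR), and none higher, beside 1.86%. Against KO DMSO the same fit called Ezh2 lower (beside 2.41%) and Asxl3 higher (beside 1.06%). In KO DHT+ENZ against KO DMSO the medians were -0.04, -0.02 and 0.10 for short, middle and long members. They were -0.03, -0.04 and 0.03 after the trend was removed. The rank correlation with length was 0.53 among the members and 0.05 over all genes, and 0.26 and 0.01 after. In KO DMSO against WT DMSO the 3 medians were -0.00, -0.05 and -0.10, and -0.00, -0.04 and -0.07 after. The rank correlation was -0.55 among the members and -0.05 over all genes, and -0.41 and -0.01 after. The pair medians there were -0.18, -0.16, 0.04 and -0.00 before the trend was removed. Pairs 1 and 2 held the lower values.

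**Figure D5:**
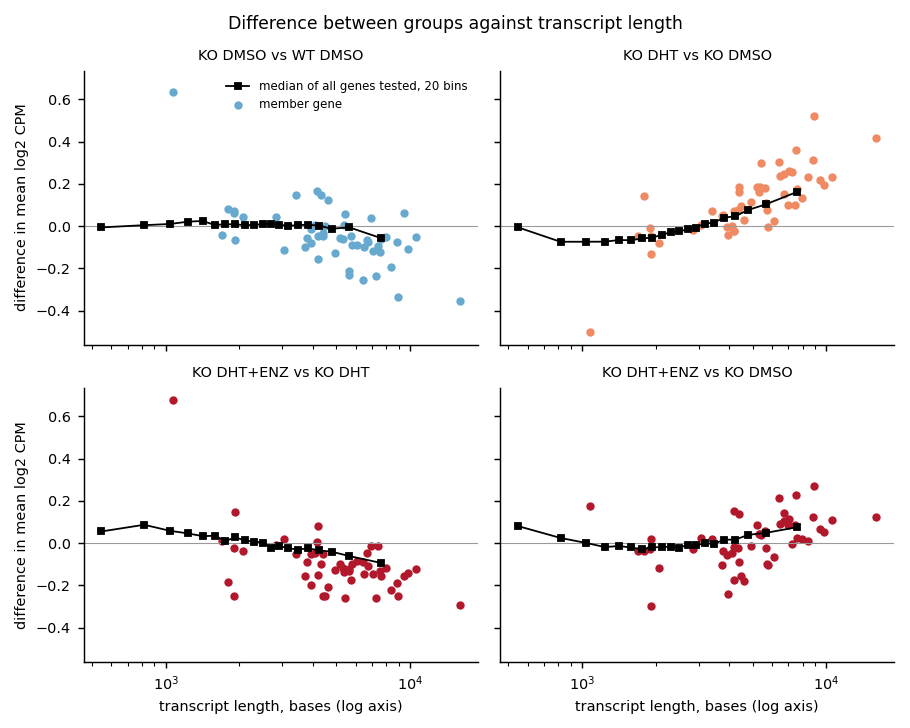
Difference in mean log2 CPM between groups against mean transcript length on a log axis, for the members (coloured points, Asxl3 left out) and for the median of all genes tested in 20 bins of length (black). In KO DHT against KO DMSO both rise with length, with member medians of -0.01 for the 18 shortest and 0.23 for the 18 longest, and in KO DHT+ENZ against KO DHT both decline.

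Other genes of the same complexes and enzyme classes, 139 tested, were described more briefly. In KO DHT+ENZ against KO DHT 95 were below 0 (68.3%, beside 50.7% of all genes). There 42 were lower and 8 higher in every same-numbered pair, beside 14.2% and 14% of all genes. In KO DHT+ENZ against KO DMSO 86 were below 0 (61.9%, beside 48.3%). There 47 were lower and 11 higher in every pair, beside 15.6% and 16%. In KO DHT against KO DMSO 77 were above 0 (55.4%, beside 49.4%). In KO DMSO against WT DMSO 72 were below 0 (51.8%, beside 50.4%). In edgeR without the block 0 of the 139 were called in any of the 4 comparisons. With the block 8 were called lower and 1 higher in KO DHT+ENZ against KO DHT, beside 1.92% and 1.57% of all genes. Against KO DMSO 7 were called lower and 0 higher in KO DHT+ENZ, beside 2.09% and 0.854%, and in the other 2 comparisons 0 were called. In cohesin these were Rad21, the kleisin subunit, at 267 ± 17.2 CPM in KO DHT+ENZ and 324 ± 15.1 CPM in KO DHT (SD, n = 4 each; -0.28, SE 0.06; adjusted p = 0.0191, edgeR with the block), Cdca5, which stabilises cohesin on replicated DNA, at -0.50 (SE 0.08), and Sgo1, which protects cohesin at centromeres, at -0.45 (SE 0.11). All 3 were also called lower against KO DMSO. The maintenance methyltransferase Dnmt1 was at 190 ± 21.2 CPM in KO DHT+ENZ, against 252 ± 42.6 CPM in KO DHT and 251 ± 15.6 CPM in KO DMSO (SD, n = 4 each). It and its partner Uhrf1 were called lower against KO DHT, at -0.40 each, and against KO DMSO.

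The other calls were spread over several classes. Smarcc1, a BAF scaffold, was lower against KO DHT by -0.23 (SE 0.05), Baz1b, an ISWI partner, by -0.30 (SE 0.07), and Paxip1, of the Kmt2c and Kmt2d complexes, by -0.28 (SE 0.07). Pcgf1, of a variant Polycomb complex, was higher against KO DHT, by 0.40 (SE 0.11). Actl6a, a BAF subunit of progenitors, was lower against KO DMSO by -0.27 (SE 0.05) and Suv39h1, an H3K9 methyltransferase, by -0.26 (SE 0.07). All of these passed only with the block, at adjusted p from 0.0125 to 0.0495 (edgeR).

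Some members lie on the X chromosome and have partners on the Y. Kdm5c was at 160.0 to 262 CPM and Kdm6a at 26.8 to 49.2 CPM over the 16 libraries. Xist, the RNA of the inactive X, was at 540 to 1713 CPM and so was present in every library. The Y partner Kdm5d was at 0.43 to 2.13 CPM and Uty at 0 to 1.08 CPM. Kdm5d was highest in replicate 1 of every group, at 2.13 CPM in KO DHT+ENZ, 1.92 in KO DHT, 2.07 in KO DMSO and 1.69 in WT DMSO, against 1.20 CPM or less in the other libraries. Uty was highest in replicate 1 of every group as well, at 1.01, 0.384, 1.08 and 0.725 CPM in the same order of groups.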

How the data were processed

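RNA of 16 cultures was sequenced as polyA libraries (integrity number above 8, paired 150 bp reads, 30 M sought, M for 1000000), per the labels' protocols. Reads were quantified with kallisto against GRCm39, per the submitters' processing notes; versions are not given in the sources used here. Per the file headers, the deposited files hold estimated counts, lengths and TPM per transcript. Transcripts were matched by identifier to GENCODE M21, an annotation of another build used for names alone (135007 of 146190 transcripts, 98.85% to 99.12% of counts).

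Gene sums of these counts, made whole, were tested in edgeR 4.0.16 under R 4.3.3 (TMM, filterByExpr, 4 groups in 1 model, all 16 libraries). SE was taken as the size of the log2 fold change over the root of the F statistic. CPM and log2 CPM (prior count 2) used the same normalization, and the deposited TPM values gave levels and length weights. The length trend is a loess fit (span 0.7) of log2 CPM deviations on log2 effective length in each library. Reads shared by near-identical genes were divided by kallisto's model. Over 9747 genes of at least 10 CPM, same-numbered libraries correlated at 0.16 to 0.79 after group means were removed, above the minimum of 0.1 set for pairing; the labels do not state it. The biological coefficient of variation was 0.212 without and 0.122 with the block. The edgeR and trend steps were tested on simulated data. Alternatives were the block, DESeq2 1.42.0, RLE scaling, no filter, length corrections, coding transcripts, 2-group fits and leaving out libraries. Named in a comparison are members called with or without the block, then up to 5 higher and 5 lower by smallest p; others named for their values are marked. Smarcc2 and Srcap were named for groups that did not overlap. The members and lists were chosen with earlier results of these data known.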

Additional observations from a re-analysis of the deposited data

Results flagged for a closer look

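Within groups of 4, a library was marked when its gap to the nearest other took a share of the group's range above Dixon's critical value. This held in 8 of the 208 groups of member values, and chance marks about 1 group in 20. In KO DHT+ENZ, Setd1a was lowest in replicate 2 at 46.2 CPM, with the others at 52.7 to 53.4 CPM, and Eed was lowest in replicate 1 at 13.4 CPM, with the others at 27.8 to 30.1 CPM. In KO DHT, Kdm5c was highest in replicate 4 at 218 CPM, with the others at 197 to 200.5 CPM. In KO DMSO, Tet3 was highest in replicate 4 at 112 CPM, with the others at 91.2 to 94.7 CPM, and Asxl3 was highest in replicate 1 at 0.147 CPM, with the others at 0. In WT DMSO, Kdm5b was lowest in replicate 1 at 69.4 CPM (others 83.1 to 84.4), Asxl3 was highest in replicate 1 at 0.929 CPM (others 0 to 0.0611), and Hdac4 was lowest in replicate 3 at 46.2 CPM (others 56.2 to 57.9). Of the 8, 2 were in WT DMSO replicate 1, the library of lowest depth.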

How the results depend on the processing

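The counts of members called were 0 in every comparison and direction without the replicate block, also in each fit without 1 library. With the block, 1 member (Ezh2) was lower in KO DHT+ENZ than in KO DHT. This count was 2 with the block and the length trend, 5 in DESeq2 with the block, and 5 with the block and without WT DMSO replicate 1. Against KO DMSO the counts were 1 lower and 1 higher with the block, 1 and 1 with the block and the length trend, 3 and 1 with the block without WT DMSO replicate 1, and 2 lower with 0 higher in DESeq2 with the block. The block changed no other member's call. The members' median log2 fold change over fits without 1 library ran from -0.15 to -0.06 for KO DHT+ENZ against KO DHT, -0.04 to 0.07 against KO DMSO, 0.05 to 0.16 for KO DHT against KO DMSO and -0.15 to -0.01 for KO DMSO against WT DMSO. The medians carry no test. DESeq2, RLE scaling, no filter, coding transcripts, the length corrections and the block, also without WT DMSO replicate 1, gave -0.13 to -0.05, -0.02 to 0.02, 0.02 to 0.12 and -0.09 to -0.02 in the same order.

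Of the single genes named, these changed sign, and the cause was not tested. In KO DMSO against WT DMSO without WT DMSO replicate 1 and with the block, Suz12 was at -0.018, Kdm6a at -0.034 and Asxl3 at 0.23. Without 1 library at a time Suz12 ran from -0.013 to 0.222, Kdm6a from -0.001 to 0.248 and Asxl3 from -5.881 to 0.273. The fitted values of Asxl3 depend on the prior count and are not sizes of a difference. With an offset for effective length Kdm4b was at 0.004 there, Smc1a at 0.010 in KO DHT against KO DMSO, and Hdac4 at -0.026 and Kdm4b at -0.073 in KO DHT+ENZ against KO DHT. Without 1 library at a time Smc1a ran from -0.091 to 0.015 in KO DHT against KO DMSO and Kdm4b from -0.006 to 0.074 in KO DHT+ENZ against KO DHT. Of the other values of single genes under an alternative, 719 kept direction and side of the threshold and 23 passed it anew. Depth limits Asxl3, with single estimated counts or fewer in most libraries.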
